A study of Homo sapiens with 9 samples.

Results

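The facilitative glucose transporters are the SLC2 (GLUT) family, membrane proteins that let sugars pass along their concentration gradient without using energy. In tumour cells, which often turn much of their glucose into lactate, they are the entry step before hexokinase and the later enzymes of glycolysis. The family falls into the classical glucose carriers (class I), a fructose and urate branch (class II) and a more distant branch (class III), many of whose members sit on internal membranes or carry other cargo. The 10 genes described here are SLC2A1, SLC2A3, SLC2A4, SLC2A5, SLC2A6, SLC2A8, SLC2A9, SLC2A10, SLC2A12 and SLC2A13, out of 22392 genes that the array measured with a probe set of 1 gene symbol. They were chosen by name, and each had 1 such probe set, so all 10 were measured.

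MDA-MB-231, an established human cell line from a triple-negative breast cancer, was the source of all RNA, which was read on whole-transcript arrays (GeneChip Human Gene 2.1 ST). By title and treatment label, 4 arrays were of cells given GNE-140, an inhibitor of lactate dehydrogenase, and 5 were of control cells. Set 1 held 2 GNE-140 and 3 control arrays, and set 2 held 2 GNE-140 and 2 control arrays. The labels give 50 µM GNE-140 for the series and 24 h for all cultures, name DMSO as the solvent of the stock, and do not say whether controls received it. All cells grew in high-glucose medium with pyruvate and serum. Another label of 6 arrays, the source name, gives a preparation of Boswellia or boswellic acid in place of GNE-140 or no treatment. They comprise every GNE-140 array and the 2 set 2 controls, and the study's text gives other numbers of arrays per set than the titles. The values below follow the titles and treatment labels, and this conflict touches every comparison. Whether the arrays of a group came from separate cultures is not stated, and p-values therefore measure only array-to-array spread, possibly of technical origin.

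Each array gave a log2 signal for 53617 probe sets. Array medians lay between 1.32 and 1.36 in set 1 and between 2.27 and 2.31 in set 2, so the sets are on different scales and GNE-140 was compared with control within each set and with the set as a block in limma. In set 1, 48.8% of genes repeated 1 value, to the last digit, on at least 3 of the 5 arrays, and so did 7 of the 10 transporter genes. In set 2 this held for 0.0336% of all probe sets. Such equal values carry no information on a difference, and the spread they show is too small. Of the markers of the line, VIM, CD44, CAV1, EGFR and MMP14 lay between the 92.6th and 98.1st percentile of their arrays, ESR1 and PGR between the 13.0th and 48.6th, and, of 4 measured leukocyte markers, PTPRC and CD3E between the 3.97th and 24.1st but CD14 (44.5th to 65.6th) and LYZ (38.8th to 56.7th) near the middle. Of the other listed markers of the line, S100A4 and ZEB1 lay between the 77.7th and 85.1st percentile, and SPARC between the 46.9th and 63.6th. The epithelial genes KRT19 (95.4th to 98.0th) and EPCAM (81.2nd to 88.0th) were well above the middle of the arrays. GATA3 (58.3rd to 74.2nd) was above it and CDH1 (41.1st to 64.9th) near it. Fibroblast markers ran from DCN (7.29th to 21.8th) to COL1A1 (52.7th to 66.4th). Adipocyte markers ran from FABP4 (2.91st to 15.7th) to PLIN1 (51.6th to 62.4th).

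None of the 10 transporter genes rose or fell with GNE-140 at an adjusted p under 0.1 from limma with the set as a block, where 0.964% of all probe sets passed. At an unadjusted p under 0.05, without correction, 2 of the 10 passed, SLC2A1 and SLC2A12, against 10.4% of all probe sets in either direction. Both were lower with GNE-140, and 4.42% of all probe sets passed in that direction. The log2 fold changes ran from -0.46 for SLC2A12 to 0.11 for SLC2A6, with 5 genes below 0 and 5 above. Their median was -0.03, against 0.0049 over all probe sets and 0.0066 over all genes. The 95% intervals of all 10 lay within a fold of 2 in either direction, and 2 of them did not include 0. Equal values in set 1, which 7 of the 10 genes had, make such intervals too narrow, so they do not exclude a larger change. In these bulk samples, fewer cells with a transcript and less transcript per cell cannot be told apart.

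**Figure D1:**
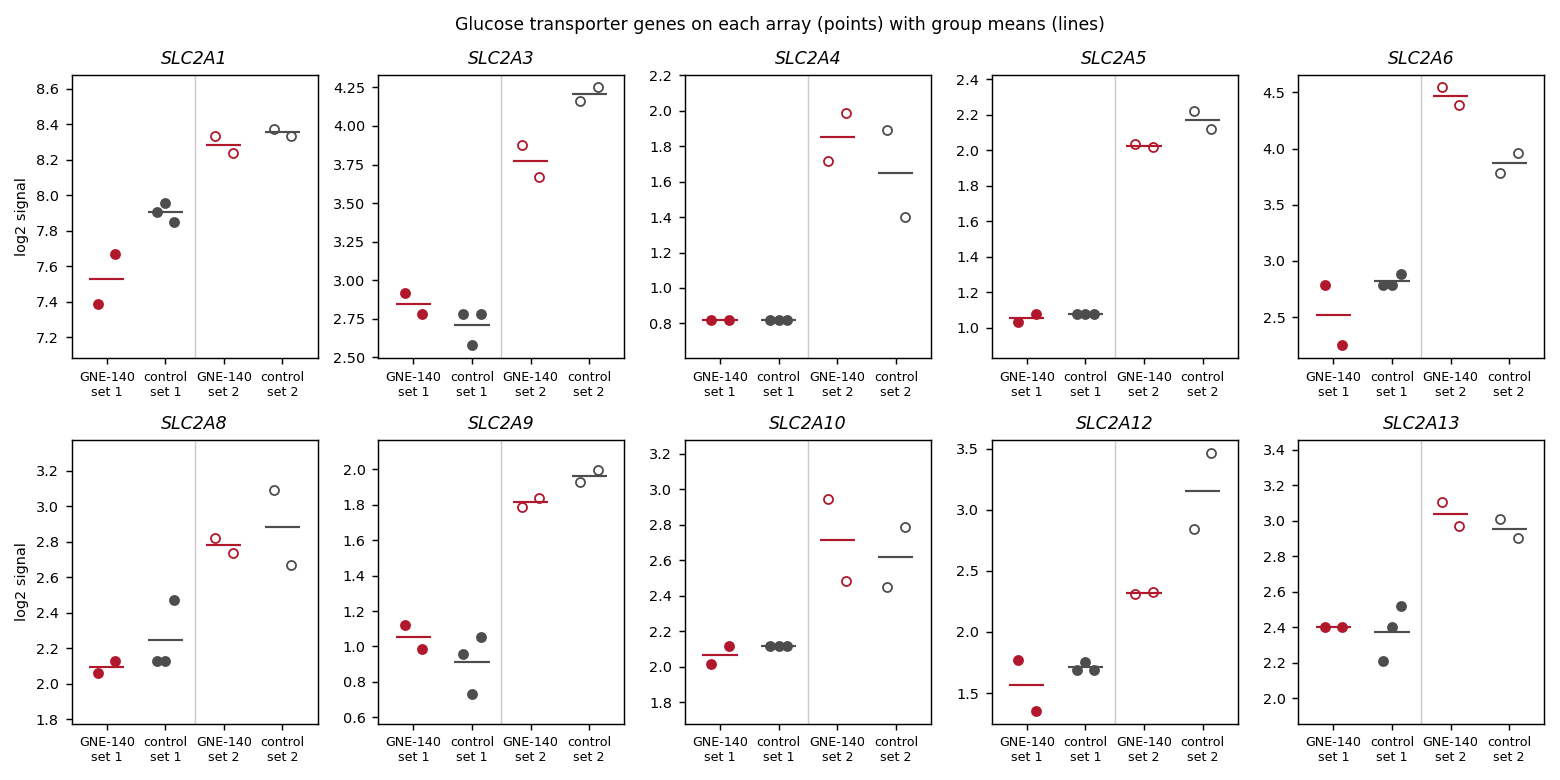
Log2 signal (y axis, a separate scale in each panel) of the 10 glucose transporter genes on every array, with GNE-140 arrays in red and control arrays in grey, set 1 filled and set 2 open; lines are group means of 2 or 3 arrays. SLC2A1 is the gene whose GNE-140 arrays lie below every control array in both sets, and several genes show the same value on most arrays of set 1.

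The promoters of the 2 genes that passed the unadjusted threshold are shown here, and they are unlike each other in sequence. Neither gene passed the adjusted threshold, so the windows are given as a description alone. Each window holds 250 bases before and 50 bases after the gene's start, from RefSeq on build GRCh38.p14, 5′ to 3′ on the strand of the gene. A promoter was found for 8 of the 10 genes, and not for SLC2A3 and SLC2A4. Capitals mark matches on either strand to the E-box CACGTG, to ACGTG (the core bound by hypoxia-inducible factors, which every E-box of this kind contains), to the GC box GGGCGG, to TATAAA or to CCAAT. The first lies at chr1:42958819-42959118 and the second at chr6:134052575-134052874, both on the minus strand.
SLC2A1: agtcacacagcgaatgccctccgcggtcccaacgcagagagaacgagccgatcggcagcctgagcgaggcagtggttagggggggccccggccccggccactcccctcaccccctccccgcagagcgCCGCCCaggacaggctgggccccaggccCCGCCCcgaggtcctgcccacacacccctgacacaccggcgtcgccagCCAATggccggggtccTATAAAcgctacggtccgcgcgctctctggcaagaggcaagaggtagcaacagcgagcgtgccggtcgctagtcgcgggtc
SLC2A12: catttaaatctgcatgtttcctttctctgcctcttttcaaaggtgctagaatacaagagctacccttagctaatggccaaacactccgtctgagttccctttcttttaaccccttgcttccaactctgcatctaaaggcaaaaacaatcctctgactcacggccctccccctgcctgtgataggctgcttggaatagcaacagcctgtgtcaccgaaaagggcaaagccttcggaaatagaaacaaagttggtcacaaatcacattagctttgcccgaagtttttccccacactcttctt

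The SLC2A1 window is 71.0% G and C and holds 2 GC boxes, 1 CCAAT and 1 TATAAA, whose first base is at position -31. The SLC2A12 window is 45.7% G and C and holds no match to any of these letters. Over 35116 RefSeq promoter windows of the same length the median G and C content was 58.7%, and 45.0% held a GC box, 34.6% a CCAAT and 11.5% a TATAAA. Of the members' windows, that of SLC2A13 held an E-box, as 7.26% of all windows did. It lies at chr12:40106032-40106331 on the minus strand, with 6 GC boxes and its E-box starting at position -25. It is shown because no other window of the 8 members with a promoter held an exact CACGTG. Looser forms of these letters were not searched.
SLC2A13: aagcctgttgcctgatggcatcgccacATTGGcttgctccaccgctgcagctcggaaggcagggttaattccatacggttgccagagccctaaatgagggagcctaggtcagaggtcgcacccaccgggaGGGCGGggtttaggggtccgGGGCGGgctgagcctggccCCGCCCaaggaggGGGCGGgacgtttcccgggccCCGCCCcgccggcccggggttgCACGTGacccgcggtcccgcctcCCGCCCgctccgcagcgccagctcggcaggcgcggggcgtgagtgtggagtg
The core ACGTG, which 21.4% of all windows held, was found in the windows of SLC2A10 and SLC2A13 and in 1 of 2 windows of SLC2A9. These are matches of letters and were not tested as binding sites.

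Among the class I carriers, SLC2A1 (GLUT1), the widely expressed carrier of basal glucose uptake, was the gene whose groups did not overlap in either set. In set 1 its log2 signal was 7.38 and 7.67 on the GNE-140 arrays, against 7.90, 7.96 and 7.85 on the control arrays. In set 2 it was 8.33 and 8.24 on the GNE-140 arrays, against 8.38 and 8.34 on the control arrays. All GNE-140 arrays thus lay below every control array of their set. In set 1 the nearest arrays, at 7.67 and 7.85, were closer than the 2 GNE-140 arrays were to each other. The nearest arrays of set 2 almost touched. With the set as a block the log2 fold change was -0.24 (standard error 0.089, 95% interval -0.44 to -0.035, adjusted p = 0.412 from limma), a fold of 0.848 with an interval of 0.736 to 0.976. Without the GNE-140 array 1A (set 1, letter A), the lowest of the 9, it was -0.14 (adjusted p = 0.543 from limma). It was -0.38 in set 1 (adjusted p = 0.790 from limma) and -0.07 in set 2 (adjusted p = 0.894 from limma), and the difference between the sets had an adjusted p of 0.641 in limma's interaction test. SLC2A1 was also the only member whose signal stood far above the dim part of the arrays, at the 97.8th percentile or higher on each of the 9 arrays, and it had no equal values in set 1. For all probe sets, 2.14% had every GNE-140 array below every control array in both sets, and 1 of the 10 transporters did.

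SLC2A3 (GLUT3), a carrier of high glucose affinity best known from neurons, had opposite differences in the 2 sets. Its log2 signal in set 1 was 2.92 and 2.78 on the GNE-140 arrays, against 2.78, 2.58 and 2.78 on the control arrays, where 3 of the 5 values are equal. In set 2 it was 3.88 and 3.67 on the GNE-140 arrays, against 4.16 and 4.25 on the control arrays, with no overlap. The log2 fold change was 0.14 in set 1, -0.43 in set 2 and -0.12 with the set as a block (standard error 0.12, adjusted p = 0.766 from limma). The difference between the sets, -0.57, had an adjusted p of 0.462 from limma. Its near copy SLC2A14, which is not among the 10, lay low on the arrays and had a log2 fold change of -0.01 (adjusted p = 0.964 from limma), and how far the probes of the pair share transcripts was not tested.

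SLC2A4 (GLUT4), the insulin-responsive carrier of muscle and fat, gave almost no information. All 5 arrays of set 1 had the same log2 signal of 0.82. In set 2 the signal was 1.72 and 1.99 on the GNE-140 arrays, against 1.89 and 1.40 on the control arrays, and the groups overlapped. The log2 fold change was 0.09 with the set as a block (standard error 0.11, adjusted p = 0.806 from limma). Its percentile on the arrays ran from 22.3 to 41.7, so a change of this gene was hard to detect.

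The class II carriers also lay low. SLC2A5 (GLUT5), the fructose carrier, had a log2 signal of 1.03 and 1.08 on the GNE-140 arrays of set 1, against 1.08 on each of the 3 control arrays. In set 2 its signal was 2.03 and 2.02 on the GNE-140 arrays, against 2.22 and 2.12 on the control arrays. The groups did not overlap in set 2, and in set 1 a single array departed from the common value. Its log2 fold change was -0.08 (standard error 0.056, adjusted p = 0.674 from limma). SLC2A9 (GLUT9), which carries urate, had 1.12 and 0.99 on the GNE-140 arrays of set 1, against 0.96, 0.73 and 1.05 on the control arrays. In set 2 it had 1.79 and 1.84 on the GNE-140 arrays, against 1.93 and 2.00 on the control arrays. It was thus the other way round in the 2 sets, and with the set as a block its log2 fold change was 0.0081 (standard error 0.092, adjusted p = 0.984 from limma).

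In class III, SLC2A12 (GLUT12), another carrier of insulin-responsive tissues that is also found in breast cancer cells, had the largest log2 fold change of the 10 in absolute size. It lay between the 50.0th and 70.2nd percentile of the arrays. A leukocyte marker, CD14, lay in an overlapping range (44.5th to 65.6th), which limits what the signal of SLC2A12 can show. In set 1 its log2 signal was 1.77 and 1.35 on the GNE-140 arrays, against 1.69, 1.76 and 1.69 on the control arrays. In set 2 it was 2.31 and 2.32 on the GNE-140 arrays, against 2.84 and 3.47 on the control arrays. The groups overlapped in set 1, where a GNE-140 array was both the highest and the lowest of the 5, and stood apart in set 2, where the 2 controls were far from each other. The log2 fold change was -0.46 with the set as a block (standard error 0.18, 95% interval -0.87 to -0.05, adjusted p = 0.428 from limma), -0.15 in set 1 and -0.84 in set 2 (adjusted p = 0.814 and 0.370 from limma). The difference between the sets was -0.69 (adjusted p = 0.592 from limma). Without the control array 2B, the higher of the 2, the log2 fold change with the set as a block was -0.28, and over the 9 fits that left out 1 array it ran from -0.63 to -0.28.

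SLC2A6 (GLUT6), a carrier of internal membranes in immune and some tumour cells, differed most between the sets. In set 1 its log2 signal was 2.79 and 2.25 on the GNE-140 arrays, against 2.79, 2.79 and 2.88 on the control arrays, so that 1 GNE-140 array was low and the other had the common value of 2 controls. In set 2 it was 4.54 and 4.39 on the GNE-140 arrays, against 3.78 and 3.96 on the control arrays, with no overlap and in the opposite direction. The log2 fold change was -0.30 in set 1, 0.60 in set 2 and 0.11 with the set as a block (standard error 0.19, adjusted p = 0.878 from limma). The difference between the sets was 0.90, the largest in absolute size of the 10, with an adjusted p of 0.444 from limma.

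The 95% intervals of the remaining class III genes included 0. SLC2A8 (GLUT8), a carrier of internal membranes, had 2.06 and 2.13 on the GNE-140 arrays of set 1, against 2.13, 2.13 and 2.47 on the control arrays, and 2.82 and 2.74 on the GNE-140 arrays of set 2, against 3.09 and 2.67 on the control arrays. Its log2 fold change was -0.13 (standard error 0.11, adjusted p = 0.719 from limma). In SLC2A8 the groups overlapped in both sets, as they did in the next 2 genes. SLC2A10 (GLUT10), whose loss in humans causes arterial tortuosity syndrome, had 2.02 and 2.12 on the GNE-140 arrays of set 1, against 2.12 on each control array, and 2.94 and 2.48 on the GNE-140 arrays of set 2, against 2.45 and 2.79 on the control arrays. Its log2 fold change was 0.01 (standard error 0.11, adjusted p = 0.977 from limma). SLC2A13 (HMIT), a proton-coupled carrier of myo-inositol that does not move glucose by the facilitative route of the others, had 2.40 and 2.40 on the GNE-140 arrays of set 1, against 2.21, 2.40 and 2.52 on the control arrays, and 3.10 and 2.97 on the GNE-140 arrays of set 2, against 3.01 and 2.90 on the control arrays. Its log2 fold change was 0.05 (standard error 0.077, adjusted p = 0.854 from limma).

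**Figure D2:**
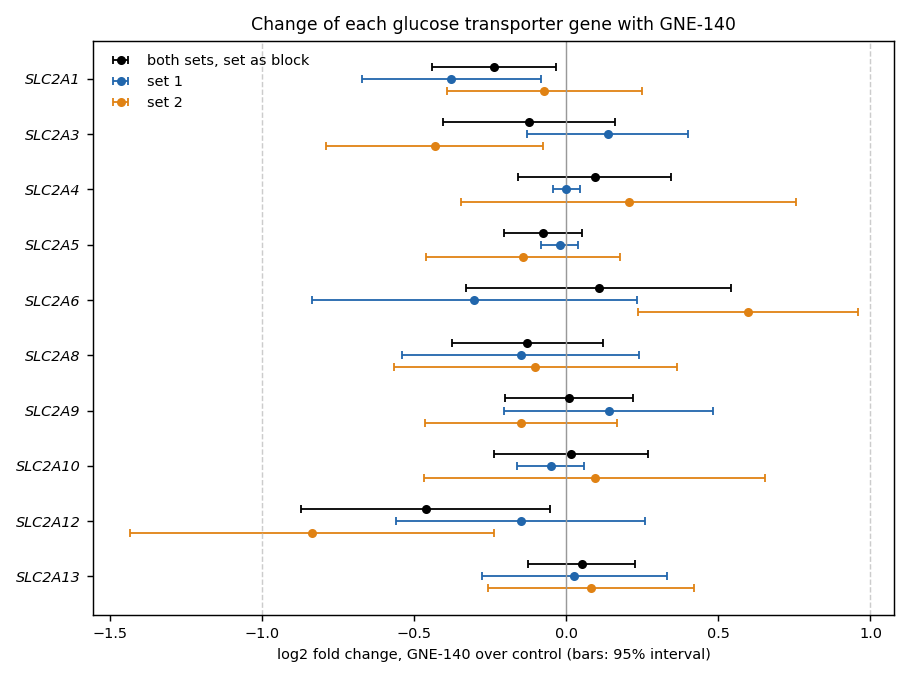
Log2 fold change of GNE-140 over control (x axis) for each of the 10 genes, with the set as a block (black), in set 1 (blue) and in set 2 (orange); bars are 95% intervals from limma without correction for the number of genes, and dashed lines mark a fold of 2. SLC2A1 (-0.24) and SLC2A12 (-0.46) have intervals with the set as a block that do not include 0, and SLC2A6 has values on opposite sides of 0 in the 2 sets.

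The log2 fold change had the same sign in both sets for SLC2A1, SLC2A5, SLC2A8, SLC2A12 and SLC2A13, which is 5 of the 10 genes and near the 55.1% of all probe sets. SLC2A4 had no difference in set 1, so its sign there has no meaning. The 55.1% also includes probe sets without a difference in set 1, such as the 2714 without variance there. These were counted by a sign left by rounding, so the shares are only roughly comparable. In set 1 the GNE-140 and control arrays did not overlap for 1 gene (SLC2A1), where 11.5% of all probe sets did not. In set 2 they did not overlap for 6 genes, with SLC2A1, SLC2A3, SLC2A5, SLC2A9 and SLC2A12 lower and SLC2A6 higher, where 41.3% of all probe sets did not. No transporter gene passed an adjusted p under 0.1 from limma in set 1 or in set 2 alone, where 0% of all probe sets passed in either set. At an unadjusted p under 0.05, set 1 had 1 member (SLC2A1) against 4.6% of all probe sets, and set 2 had 3 members (SLC2A3, SLC2A6 and SLC2A12) against 10.4%. For the difference between the sets, no member passed an adjusted p under 0.1 from limma's interaction, where 0.0541% of all probe sets passed, and 3 members (SLC2A3, SLC2A6 and SLC2A12) had an unadjusted p under 0.05, against 8.36%. In set 1 a member was called when 1 GNE-140 array was left out, SLC2A6 without array 1A (log2 fold change -0.57, adjusted p = 0.0885 from limma) and SLC2A10 without array 1B (-0.10, adjusted p = 0.0837). These fits rest on 1 GNE-140 array and on equal control values, and they called 5.6% and 3.93% of all probe sets.

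In the lists of genes around the transporters, those that passed the test were of proteins that act on transporters or their genes. None of the other sugar carriers or the sugar kinases passed. Every list was chosen with earlier results of these data known, and the paper reports ARRDC4 as up-regulated. The counts per list are therefore a description and do not test enrichment. Arrestin-domain proteins of the TXNIP family bind glucose transporters and draw them from the cell surface, and their genes respond to glucose through the MondoA factor. Of 15 measured genes of surface traffic and turnover, 2 rose and none fell, where 0.964% of all probe sets passed in either direction. ARRDC4, such an arrestin-domain gene, rose by a log2 of 1.88 (standard error 0.14, adjusted p = 0.0027 from limma), with a log2 signal of 5.33 and 5.06 on the GNE-140 arrays of set 1, against 3.55, 3.63 and 3.18 on the control arrays, and 6.15 and 5.74 on the GNE-140 arrays of set 2, against 3.98 and 3.81 on the control arrays. TXNIP rose by a log2 of 0.71 (standard error 0.063, adjusted p = 0.0055 from limma), with 9.03 and 8.89 on the GNE-140 arrays of set 1, against 8.25, 8.36 and 8.16 on the control arrays, and 9.79 and 9.84 on the GNE-140 arrays of set 2, against 9.09 and 9.10 on the control arrays. In both genes every GNE-140 array lay above every control array of its set, in both sets. The share of all probe sets that were higher in this way was not counted. Both genes were named because they passed the test on these same values, so their separation adds no further support. An exact CACGTG was found in the window of ARRDC4 and in neither of the 2 windows of TXNIP. Looser forms of these letters were not searched, so the count does not show whether MondoA could bind either promoter.

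Of 12 measured regulators of transporter genes, 1 rose and none fell, against the same 0.964% of all probe sets. This was MYC, a transcription factor that activates SLC2A1 among many genes of growth, which rose by a log2 of 0.51 (standard error 0.077, adjusted p = 0.035 from limma). The signals of MYC were 6.10 and 5.96 on the GNE-140 arrays of set 1, against 5.56, 5.74 and 5.55 on the control arrays, and 7.90 and 7.81 on the GNE-140 arrays of set 2, against 7.28 and 7.18 on the control arrays. MYC lost the call without any 1 array of set 2 (adjusted p = 0.109 to 0.124 from limma). HIF1A, the oxygen-regulated factor whose targets include SLC2A1 and SLC2A3, had a log2 fold change of 0.08 (adjusted p = 0.634 from limma), and MLXIP, which encodes MondoA, of -0.04 (adjusted p = 0.917 from limma). Both were named for their roles after their values had been seen.

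None of the 4 other SLC2 genes, the 6 measured sodium-coupled carriers of sugar and inositol, the 8 measured genes of hexose phosphorylation, the 6 of urate handling and the 4 of inositol synthesis and phosphatase passed the test with the set as a block. At an unadjusted p under 0.05 these lists had 0, 1, 3, 1 and 0 genes, where 10.4% of all probe sets passed. In hexose phosphorylation the median log2 fold change was 0.07 and the range -0.29 to 0.61. Its 3 genes under that threshold, likewise named after their values had been seen, were 2 that were higher with GNE-140 and 1 that was lower. GCKR, the regulatory protein of glucokinase, was at 0.61 (SE 0.19, adjusted p = 0.293 from limma) and HKDC1, a hexokinase-like enzyme, at 0.46 (SE 0.12, adjusted p = 0.231 from limma). HK2, the hexokinase that traps glucose in many tumour cells, was at -0.29 (SE 0.097, adjusted p = 0.349 from limma).

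**Figure D3:**
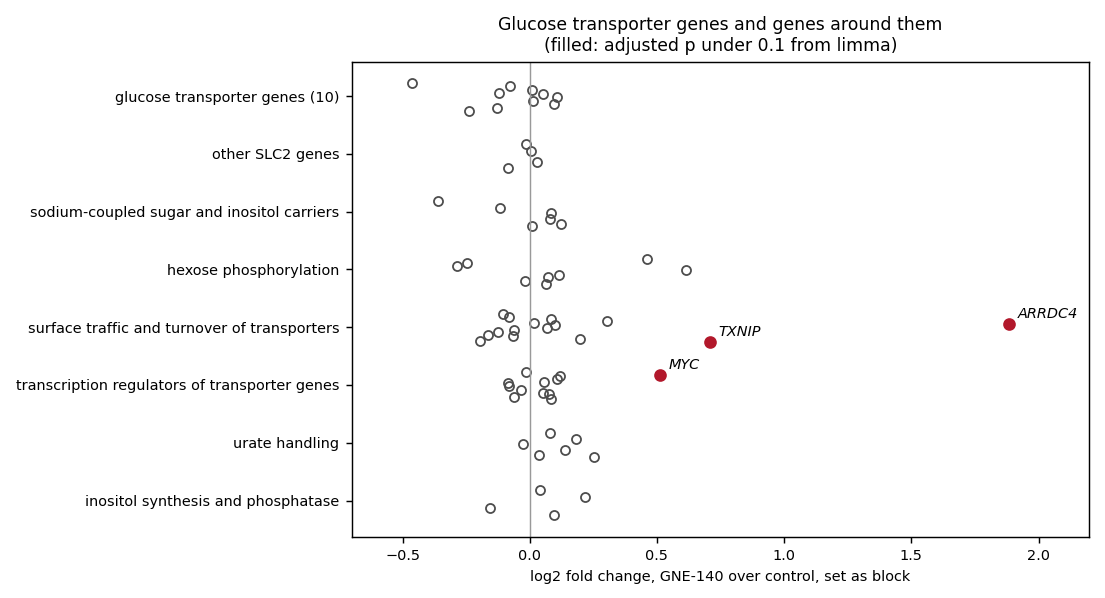
Log2 fold change of GNE-140 over control with the set as a block (x axis) for the 10 glucose transporter genes and for 7 lists of genes around them (rows), 1 point per gene; the height of a point within its row has no meaning. Filled points passed an adjusted p under 0.1 from limma and are ARRDC4 (1.88), TXNIP (0.71) and MYC (0.51), and no transporter gene is among them.

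Over the 9 arrays, after the mean of each set was subtracted, the genes whose signals followed SLC2A1 most closely were ZNF765 (Pearson r = 0.952), HACD3 (r = 0.947) and RN5S111 (r = 0.942). For SLC2A3 they were ANGPTL6 (r = 0.978), TXNDC17 (r = 0.966) and CWF19L1 (r = 0.952). The points share arrays and treatment, the genes are the closest of 22392, and CWF19L1 had the same value on 4 of the 5 arrays of set 1. None of these 6 neighbours passed the test for GNE-140 (adjusted p = 0.426 to 0.869 from limma), and the values are given as a description of likeness alone.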

How the data were processed

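The authors turned the scanner files into deposited log2 signals, 1 column per array, in an expression console, followed by the Transcriptome Analysis Console. The sources used here give no version, summarization, background correction, normalization or genome build. Gene names came from the platform annotation, updated by gene ID. Of 53617 probe sets 23866 had 1 symbol, 1852 several and 27899 none.

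GNE-140 was compared with control by limma 3.58.1 in R 4.3.3 (lmFit, eBayes), with the set as a block, within each set, and by the interaction of set and treatment, with p-values adjusted by Benjamini-Hochberg across every probe set and no filter. In set 1, 2714 probe sets had no variance, which limma offset. The call was an adjusted p under 0.1. All members and, of each list around them, the genes that passed were named. The members and lists were chosen with earlier results of these data known. The fit was tested on simulated data. Alternatives were quantile normalization, centring, leaving out dim probe sets or those with equal values in set 1, another variance prior, the mean of a gene's probe sets, other treatments of the set, a replicate block, and leaving out each array. Arrays have no depth, and their number limits the precision.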

Additional observations from a re-analysis of the deposited data

How the results depend on the processing

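With the set as a block, the count of transporter genes called was 0 in all 19 alternatives (lowest adjusted p of a member 0.217 to 1.00 from limma). Among them, an adjusted p under 0.05 could only give 0. The mean of probe sets left the members, each with 1 probe set, unchanged. No share of all probe sets called is given for these alternatives. The main fit of set 2 called 0% of all probe sets, so a count of 0 there carries little information. The count of transporter genes called was 0 in 11 alternatives for set 2 and in 15 for the difference between the sets. In set 1 it was 0 to 1 over the fits that left out 1 array. SLC2A1 and SLC2A12 kept a negative sign in all 18 alternatives (-0.30 to -0.14 and -0.63 to -0.28), and SLC2A8 and SLC2A13 kept theirs in 17. Some of these alternatives could not change a member's log2 fold change, so their agreement was fixed in advance. They were leaving out dim probe sets or those with equal values in set 1, the other variance prior and the mean of a gene's probe sets. The median log2 fold change of the members was 0.049 without the set term, -0.12 without dim probe sets and -0.24 when probe sets with equal values in set 1 were left out, the last chosen after seeing the data and leaving 3 members. The signs of small log2 fold changes were not stable. After quantile normalization SLC2A10 was at -0.010, after centring SLC2A9 was at -0.0082 and SLC2A10 at -0.0021, and without the set term SLC2A3 was at 0.0015 and SLC2A5 at 0.027. When 1 array was left out, SLC2A4 ran from -0.015 to 0.16, SLC2A6 from -0.012 to 0.33, SLC2A9 from -0.055 to 0.048 and SLC2A10 from -0.082 to 0.082. The cause was not tested. Arrays of the same letter did not deviate together (r = 0.030 and -0.15 in set 1, -0.0025 in set 2). With 2 arrays per group in set 2, letters A and B give the same r by construction, so this is 1 value. With the replicate block 0 members were called, and ARRDC4 (adjusted p = 0.111 from limma), TXNIP (0.168) and MYC (0.313) lost their calls. For the replicate block no share of all probe sets called is given, so these lost calls cannot be set against the whole array. Without the set term these 3 were also not called, but the lowest adjusted p of any probe set was 0.168 from limma. That fit could call no gene, and its count of 0 members carries no information. The mean signals of SLC2A4, SLC2A5 and SLC2A9 were under the median of all probe sets, which limits what could be detected for them. SLC2A12 lay between the 50.0th and 70.2nd percentile, so a similar limit may hold for it.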
